A study of Homo sapiens with 4 samples.

Results

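Receptor-type protein tyrosine phosphatases of epithelial cells were compared between FLO-1LM and FLO-1 parental cells. The genes are *PTPRK*, *PTPRM*, *PTPRU*, *PTPRF*, *PTPRS*, *PTPRA*, *PTPRE*, *PTPRG* and *PTPRJ*, taken by symbol and matched to Ensembl identifiers, which makes 9 of the 63677 genes in the files. *PTPRK* was chosen by its measured difference in CPM between these lines, that is, because its RNA level differs in this very comparison. Its difference is therefore a description here, with no test, and the other 8 genes stand beside it by family. FLO-1 cells are a long-established line from a human adenocarcinoma of the esophagus, and FLO-1LM is a subline grown from a liver metastasis of these cells after repeated passage of liver deposits through immunodeficient mice and then kept in culture. Neither line carried an added transgene or received a drug in this experiment as far as the labels say, and both were collected near confluency on the day after fresh medium was given. There are 2 RNAseq libraries for each line. The labels do not say whether they came from separate cultures, so the p-values measure the spread between libraries, which may be technical, and any feature of this 1 subline other than its metastatic origin cannot be told apart from it.

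Receptor-type tyrosine phosphatases cross the plasma membrane, with an adhesion-like extracellular part and an intracellular part that, where active, removes phosphate from tyrosine. In epithelia they sit largely at cell contacts, where cadherins, catenins and growth factor receptors are among their known substrates. *PTPRK*, *PTPRM* and *PTPRU* encode the R2B type, in which like molecules on neighboring cells can bind each other. *PTPRF* (LAR) and *PTPRS* encode the R2A type, which binds liprin scaffolds inside the cell. *PTPRA* and *PTPRE* have short extracellular parts, and PTPRA activates SRC family kinases by removing an inhibitory phosphate. *PTPRG* encodes a phosphatase with a carbonic anhydrase-like domain that binds contactins. *PTPRJ* (DEP-1, CD148) encodes an R3 type phosphatase that acts on receptor kinases such as MET and EGFR.

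The codons of the catalytic loop are shown because this is the part of the coding sequence by which all 9 genes are recognized as 1 enzyme family. Each run holds 30 coding bases of the first catalytic domain, read 5′ to 3′ from the GENCODE transcripts on GRCh37, with the codons of the catalytic cysteine and of the phosphate-binding arginine in capitals.
PTPRK: catTGCagtgctggtgctggaCGAactggc
PTPRM: cacTGCagtgctggtgcagggAGGactggc
PTPRU: cacTGCagcgcgggcaccggcCGCacaggt
PTPRF: cacTGCagcgcgggcgtgggcCGCaccggc
PTPRS: cacTGCagtgccggtgtgggcCGCacaggc
PTPRA: cacTGCagtgcaggtgtagggCGTacaggt
PTPRE: cacTGTagcgcgggcgtgggcCGGacgggc
PTPRG: cacTGCagtgctggtgtgggcAGAacaggc
PTPRJ: catTGCagtgctggggtcggaAGGacgggc
Both codons were present in all 9 genes, which does not show that each product is an active enzyme. In each of the 9 the 30 bases were divided between 2 exons, so that the run of *PTPRK* spans chr6:128304501-128306873 on the reverse strand with an intron inside it. *PTPRK* had the same base as *PTPRM* at 25 of the 30 positions, and the same base as *PTPRU* and *PTPRE* at 20 of 30. The deduced proteins were compared over the residues that aligned without gaps. PTPRK was 62.9% identical to PTPRM and 61.0% identical to PTPRU, the other R2B members. It was 29.7% to 40.4% identical to the other 6. Of the 1472 residues of PTPRK, 1440 were aligned with PTPRM and 1433 with PTPRU, but only 781 with PTPRA and 679 with PTPRE. The values of PTPRA (37.4%) and PTPRE (40.4%) thus cover a smaller part of PTPRK and are not on a par with those of PTPRM and PTPRU. The longest run of coding bases that *PTPRK* shared exactly with any other member was 21, with *PTPRG*, whereas *PTPRF* and *PTPRS* shared a run of 43. How long the reads were, and what was done with those matching several places, is not given in the sources used here, so the values of *PTPRF* and *PTPRS* are uncertain to the extent that short reads could be divided between them.

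Total counts on genes ran from 19060310 to 25920336 per library, and 17143 genes passed the low-count filter and were tested. A gene was called at an adjusted p below 0.05, from the quasi-likelihood test of edgeR adjusted over all tested genes by Benjamini and Hochberg. Levels of a gene are given as CPM, its counts scaled to a common library size by TMM, and levels between genes as RPKM, the CPM divided by the kilobases of annotated exon. Cell identity was described by lists of common markers. Like all gene lists here, these were chosen with earlier results of these data known, so their calls are not an independent check. Of 6 epithelial markers, 5 were tested and all 5 were called lower in FLO-1LM (*KRT8*, *KRT18*, *KRT19*, *CDH1* and *CLDN4*), beside 1.83% of all tested genes. The summed level of the list was 489 to 505 CPM in FLO-1LM and 863 to 874 CPM in parental cells. *EPCAM* had 3 to 12 counts per library. Leukocyte markers summed to at most 0.539 CPM and the 2 endothelial markers that could be matched to at most 0.313 CPM, with *PTPRC*, the leukocyte receptor phosphatase, at 0 counts in all 4 libraries. Of 5 fibroblast markers *COL3A1* and *DCN* were at 0 in every library, while *COL1A1* had 186 to 284 counts. Of 4 mesenchymal markers 3 were tested and 0 passed the threshold in edgeR, beside 2.23% of all tested genes. None had an unadjusted p below 0.05 in edgeR, beside 12.4%. Their log2 fold changes were 0.08 (SE 0.068) for *VIM*, 0.14 (SE 0.091) for *ZEB1* and 0.50 (SE 0.81) for *FN1*. *VIM* had the most counts, 30647 to 40598 per library, and *CDH2* had none in any library. The study reported raised protein of N-cadherin, which *CDH2* encodes, in FLO-1 cells by western blot, and this difference was not tested. What part the lower epithelial markers have in the results below was not tested.

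The genes differed far more from each other in level than between the lines. *PTPRF* stood highest, with 39.6 and 41.6 RPKM in the FLO-1LM libraries and 38.5 and 40.6 RPKM in the parental libraries, and took 46.0% to 47.5% of the summed RPKM of the 9 genes. *PTPRS* and *PTPRA* followed, *PTPRS* at 14.2 ± 0.44 RPKM in FLO-1LM and 12.6 ± 1.0 RPKM in parental cells and *PTPRA* at 13.7 ± 0.20 and 13.5 ± 0.26 (SD, n = 2 each). In parental cells the ranges of *PTPRS* and *PTPRA* met, so neither stood apart from the other beyond its spread, and in FLO-1LM the lowest *PTPRS* library lay just above the highest *PTPRA* library at 13.91 against 13.86 RPKM. This near tie depends on the length used, since with the longest transcript of each gene the mean over the 4 libraries was 21.5 RPKM for *PTPRS* and 14.3 RPKM for *PTPRA*. *PTPRG*, *PTPRJ* and *PTPRU* formed a lower group, at 6.95 ± 0.48, 5.41 ± 0.55 and 4.69 ± 0.060 RPKM in FLO-1LM and at 6.06 ± 0.35, 5.79 ± 0.12 and 4.80 ± 0.48 RPKM in parental cells. In parental cells the libraries of *PTPRG* and *PTPRJ* overlapped. *PTPRK* came next to last among the detected genes, at 1.81 ± 0.13 RPKM in FLO-1LM and 1.02 ± 0.16 RPKM in parental cells, and *PTPRE* was lowest at 0.174 ± 0.094 and 0.275 ± 0.033 RPKM. *PTPRM*, the closest relative of *PTPRK* by protein identity, had 0 counts in all 4 libraries, which allows at most 0.117 to 0.156 CPM per library by a limit of 3 counts. These limits, and the counting intervals below, cover counting error only.

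**Figure D1:**
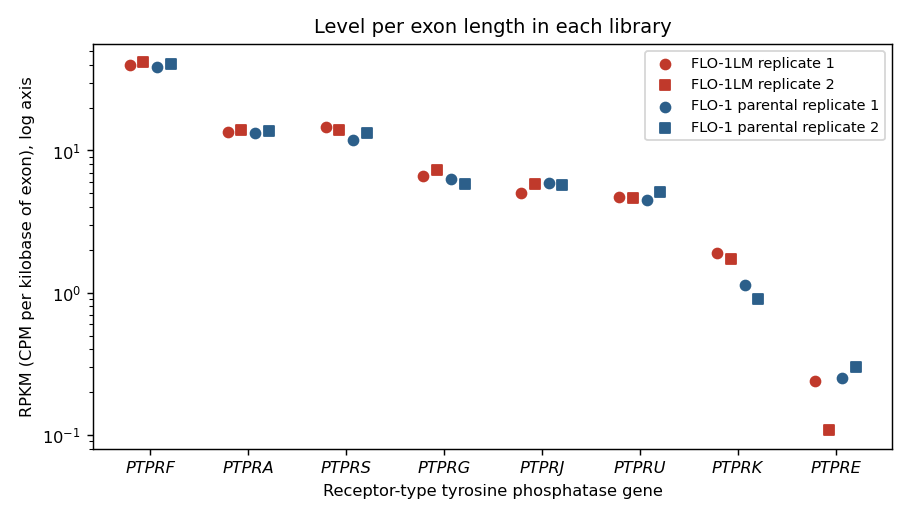
Level of each detected receptor phosphatase gene in RPKM (log axis) in each of the 4 libraries, ordered by the parental mean. *PTPRF* lies near 40 in every library, *PTPRK* between 0.905 and 1.90 with the FLO-1LM libraries above the parental ones, and *PTPRE* lowest.

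*PTPRK* (ENSG00000152894) lies on the reverse strand of chromosome 6 of GRCh37 from 128289930 to 128841761. It received 379 and 395 counts in FLO-1LM and 222 and 155 in parental cells. After scaling this was 17.0 and 15.3 CPM in FLO-1LM and 10.1 and 8.08 CPM in parental cells, so that both FLO-1LM libraries stood above both parental ones. The exact 95% Poisson intervals of the counts, on the CPM scale, ran from 13.9 to 18.8 over the FLO-1LM libraries and from 6.86 to 11.5 over the parental libraries. They cover counting error only, and libraries of 1 line differed by more than that over all genes. The mean level was 16.2 ± 1.2 CPM in FLO-1LM and 9.08 ± 1.4 CPM in parental cells (SD, n = 2 each), a fitted fold of 1.78 and a log2 fold change of 0.83 (standard error, SE, 0.17). The parental libraries were farther apart than the FLO-1LM libraries, and without FLO-1 parental replicate 2, the lower of them, the log2 fold change was 0.68, against 1.00 without FLO-1 parental replicate 1. By its mean CPM over the libraries *PTPRK* stood at the 43.0th percentile of all tested genes. An antisense gene, *PTPRK-AS1*, lies within it and had 1 count in 1 parental library and 0 in the other three libraries.

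Of the other R2B members *PTPRU* alone could be compared. It had 704 and 799 counts in FLO-1LM and 657 and 659 counts in parental cells, which is 31.6 and 31.0 CPM against 29.8 and 34.4 CPM. The parental libraries enclosed those of FLO-1LM. Its log2 fold change was −0.03 (SE 0.11, edgeR adjusted p = 0.95), and the 95% interval of the fold ran from 0.827 to 1.15. *PTPRM* could not be compared because no library had a count.

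The R2A genes were close to even between the lines. *PTPRF*, which encodes LAR, had 424.7 and 446.1 CPM in FLO-1LM and 412.9 and 435.3 CPM in parental cells, and these ranges overlapped. Its log2 fold change of 0.04 (SE 0.071, edgeR adjusted p = 0.90) had a 95% interval of the fold from 0.927 to 1.14, the narrowest of the family on the largest counts. *PTPRS*, which binds heparan and chondroitin sulfate proteoglycans, had 171.3 and 164.1 CPM in FLO-1LM and 140.4 and 157.4 CPM in parental cells. Here the FLO-1LM libraries were both higher, but the lower of them exceeded the higher parental library by less than the parental libraries differed from each other. The log2 fold change was 0.17 (SE 0.080, edgeR adjusted p = 0.39).

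Among the other types, *PTPRA* was the most even, at 53.1 and 54.2 CPM in FLO-1LM and 52.1 and 53.6 CPM in parental cells, with a log2 fold change of 0.02 (SE 0.092, edgeR adjusted p = 0.96). *PTPRG* had 96.7 and 106.5 CPM in FLO-1LM and 92.3 and 85.0 CPM in parental cells. Its FLO-1LM libraries were both higher, with a log2 fold change of 0.20 (SE 0.086, edgeR adjusted p = 0.34) that did not pass the threshold. *PTPRJ* had 48.9 and 56.4 CPM in FLO-1LM and 57.2 and 55.5 CPM in parental cells, which overlapped, at a log2 fold change of −0.10 (SE 0.098, edgeR adjusted p = 0.78). *PTPRE* was measured on few counts, 60 and 31 in FLO-1LM and 62 and 64 in parental cells. Its level of 2.69 and 1.20 CPM against 2.81 and 3.34 CPM gave a log2 fold change of −0.67 (SE 0.40, edgeR adjusted p = 0.55) with a 95% interval of the fold from 0.353 to 1.12. FLO-1LM replicate 2 alone was low, and the value was −0.19 without that library and −1.35, with an adjusted p of 0.030 from edgeR, without FLO-1LM replicate 1.

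Across the family, 8 of the 9 genes could be tested. *PTPRK* was among the genes called higher in FLO-1LM, beside 0.402% of all tested genes, and nothing is read from this because the gene was taken up for it. Of the other 7 tested genes, 0 passed the threshold in edgeR, beside 2.23% of all tested genes in either direction. *PTPRS* and *PTPRG* had an unadjusted p below 0.05 in edgeR, beside 12.4% of all tested genes, DESeq2 gave 0 genes past either limit, and limma voom with TMM factors gave 0 past the adjusted and 2 past the unadjusted limit. The CPM of the lines did not overlap for *PTPRK*, which was taken up for being higher and is left out of this count. Among the other 7 tested genes the lines did not overlap for *PTPRS* and *PTPRG*, both higher, and *PTPRE*, which was lower. This share is near the background, which is 42.6% of all tested genes, 20.9% higher and 21.7% lower. The median log2 fold change of the 8 genes, *PTPRK* included, was 0.03, and that of all tested genes was 0.0016.

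**Figure D2:**
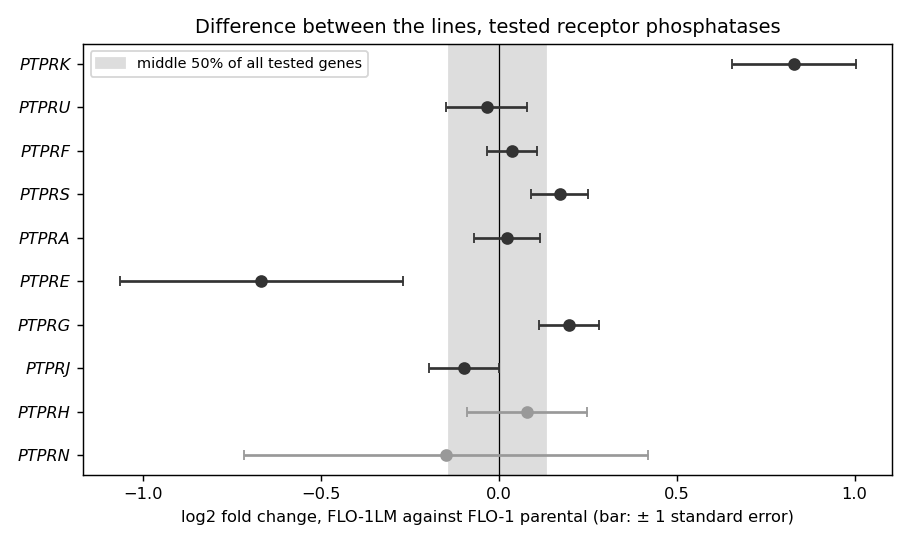
log2 fold change of each tested receptor phosphatase gene, FLO-1LM against FLO-1 parental cells, with bars of 1 standard error, the 8 members in black and *PTPRH* and *PTPRN* in gray. The gray band runs between the quartiles of all tested genes. *PTPRK* lies at 0.83, and *PTPRE* at −0.67 has the widest bar of the members.

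A ratio of counts within a library does not depend on how libraries are scaled. For each 100 counts of *PTPRF* there were 4.01 and 3.44 counts of *PTPRK* in the FLO-1LM libraries and 2.44 and 1.86 in the parental libraries. For each 100 counts of *PTPRU* there were 53.8 and 49.4 in FLO-1LM and 33.8 and 23.5 in parental cells, and for each 100 counts of *PTPRJ* 34.8 and 27.2 against 17.6 and 14.6. All 7 such ratios were higher in both FLO-1LM libraries than in both parental libraries, but they share the counts of *PTPRK* and are not separate measurements. As a share of the summed RPKM of the 9 genes, *PTPRK* took 2.21% and 1.93% in FLO-1LM and 1.38% and 1.06% in parental cells. An exact permutation of 2 libraries against 2 cannot reach the threshold for any such value.

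**Figure D3:**
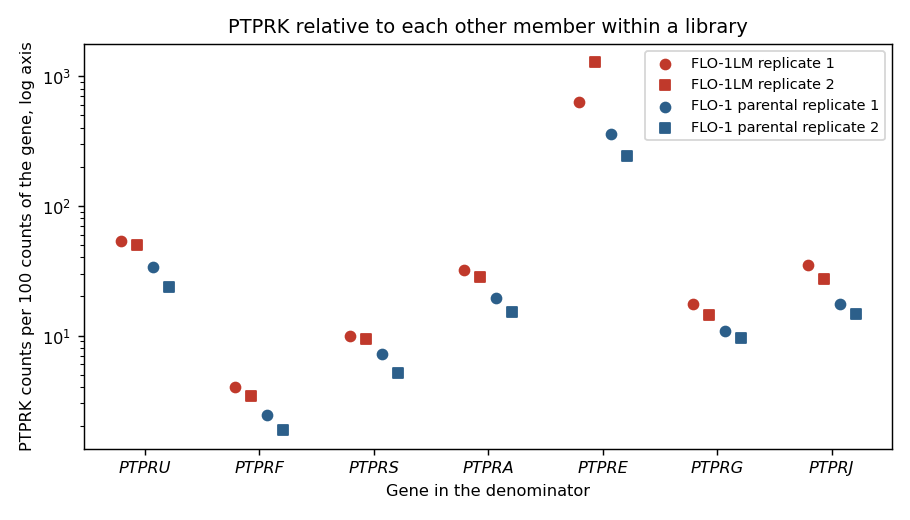
Counts of *PTPRK* per 100 counts of each other detected member in the same library (log axis), by library. For every denominator the 2 FLO-1LM libraries lie above the 2 parental ones, with *PTPRF* lowest at 1.86 to 4.01.

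The other receptor-type phosphatases are 11 genes, of which *PTPRH* had 333 to 570 counts per library and the rest had at most 33 or none. No count was found in any library for 6 of them, *PTPRB*, *PTPRC*, *PTPRD*, *PTPRQ*, *PTPRT* and *PTPRZ1*, and only *PTPRH* and *PTPRN* could be tested. *PTPRH*, an R3 type relative of *PTPRJ*, had 18.5 ± 5.1 CPM in FLO-1LM and 17.6 ± 0.018 CPM in parental cells (SD, n = 2 each), which differ by a log2 value of 0.08 (SE 0.17, edgeR adjusted p = 0.91). Its FLO-1LM libraries lay on either side of the parental ones. *PTPRN* had 17 to 33 counts per library and a log2 fold change of −0.15 (SE 0.57, edgeR adjusted p = 0.96). Neither had an unadjusted p below 0.05 in edgeR, beside 12.4% of all tested genes. *PTPRT*, the remaining R2B gene, and *PTPRD*, the remaining R2A gene, were both among those at 0. In both lines counts were thus found for 2 of 4 R2B genes and 2 of 3 R2A genes.

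Of 18 nonreceptor tyrosine phosphatase genes, whose products work in the cytoplasm, 12 were tested. *PTPN1*, which encodes the endoplasmic reticulum phosphatase PTP1B, was lower, beside 1.83% of all tested genes called in that direction, and the other 11 did not pass the threshold. It had 1521 and 1834 counts in FLO-1LM and 1936 and 1687 counts in parental cells, which is 69.8 ± 2.1 CPM against 87.9 ± 0.11 CPM (SD, n = 2 each). The libraries of the lines did not overlap, and the log2 fold change was −0.33 (SE 0.084, edgeR adjusted p = 0.043). This call lies close to the threshold, and the adjusted p from edgeR was 0.54 without FLO-1 parental replicate 1 and 0.45 without FLO-1 parental replicate 2, at log2 fold changes of −0.33 in both. The genes with the most counts were *PTPN14*, a partner of the YAP pathway, at 244.5 ± 18.7 CPM in FLO-1LM and 249.9 ± 23.3 in parental cells, and *PTPN11*, which encodes SHP2, at 222.5 ± 18.7 and 206.4 ± 9.0. *PTPN2* was higher in both FLO-1LM libraries, at 37.5 ± 4.4 against 31.1 ± 1.5 CPM, with an adjusted p of 0.34 from edgeR. *PTPN6*, which encodes SHP1, was lower in both, at 7.15 ± 1.8 against 9.81 ± 0.14 CPM, with an adjusted p of 0.38 from edgeR. With *PTPN1* these are the 3 genes of the list with an unadjusted p below 0.05 in edgeR, beside 12.4% of all tested genes. The median log2 fold change of the 12 genes was −0.05.

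The known substrates at cell contacts were taken from a list of 10 cadherin complex and junction genes, of which 9 were tested and 1, *CDH1*, was called, lower in FLO-1LM, beside 1.83% of all tested genes. An unadjusted p below 0.05 in edgeR was found for 5 of the 9, beside 12.4% of all tested genes, with *CDH1*, *JUP*, *MLLT4* and *CTNND1* lower and *PARD3* higher. Counts of *CDH1*, which encodes E-cadherin, were 8.53 and 10.2 times those of *PTPRK* in the parental libraries and 0.963 and 1.30 times in the FLO-1LM libraries. Because *CDH1* was called lower and *PTPRK* was taken up for being higher, this shift only restates their differences. The ratios are of counts and are not corrected for exon length. The catenins that carry phosphotyrosine at the junction had the most counts of this list. *CTNND1*, which encodes p120 catenin, had 459.8 ± 5.0 CPM in FLO-1LM and 512.6 ± 29.1 in parental cells (edgeR adjusted p = 0.37), *CTNNA1* had 426.1 ± 1.9 and 423.2 ± 3.8 (edgeR adjusted p = 0.98), and *CTNNB1*, which encodes beta-catenin, had 382.9 ± 11.2 and 373.3 ± 2.1 (edgeR adjusted p = 0.90; SD, n = 2 each). *JUP*, which encodes plakoglobin, was lower in both FLO-1LM libraries at 83.3 ± 0.24 against 100.8 ± 0.54 CPM, with a log2 fold change of −0.27 (SE 0.080) and an adjusted p of 0.096 from edgeR. *MLLT4*, which encodes afadin, had a log2 fold change of −0.24 (SE 0.077, edgeR adjusted p = 0.145). *PARD3*, which encodes a cell polarity protein, had 71.7 ± 7.6 CPM in FLO-1LM and 62.1 ± 4.6 in parental cells, a difference of 0.21 on the log2 scale (SE 0.097, edgeR adjusted p = 0.40). None of 6 tyrosine kinase genes passed the threshold in edgeR, 0 of them also at an unadjusted p below 0.05, beside 2.23% and 12.4% of all tested genes. Their log2 fold changes ran from −0.22 for *LYN* to 0.04 for *YES1*, with *EGFR* at −0.01 (SE 0.080).

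R2B phosphatases are cut by furin-type convertases in the secretory pathway, then by ADAM proteases at the surface and by gamma-secretase in the membrane. All 9 genes of this list were tested and 0 passed the threshold in edgeR, 2 of them, *FURIN* and *PSENEN*, with an unadjusted p below 0.05, beside 2.23% and 12.4% of all tested genes. *ADAM10* had 192.8 ± 9.8 CPM in FLO-1LM and 190.4 ± 10.4 in parental cells, and *FURIN* 186.3 ± 10.6 and 209.9 ± 13.4 (SD, n = 2 each). Of the 7 liprins and other partners of LAR, 6 were tested and 0 passed in edgeR, 1 of them with an unadjusted p below 0.05, beside the same 2.23% and 12.4%. That gene, *TRIO*, which encodes a guanine nucleotide exchange factor that binds LAR, had 545.7 ± 32.7 CPM in FLO-1LM and 482.3 ± 29.2 in parental cells, a log2 fold change of 0.18 (SE 0.074, edgeR adjusted p = 0.31). *RSPO3*, the R-spondin gene that is joined to *PTPRK* by a recurrent rearrangement in colorectal cancer, had 0 counts in every library. Of the 8 genes of the R-spondin axis 4 were tested and 0 passed in edgeR at either limit, beside the same 2.23% and 12.4%. In FLO-1LM and parental cells *ZNRF3* had 15.6 ± 0.76 and 16.0 ± 0.24 CPM and *LGR4* had 6.79 ± 0.045 and 5.23 ± 0.62 CPM.

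Genes near *PTPRK* on chromosome 6 were read in the same fit. Within 5 megabases of its start site on either side, 18 other protein-coding genes were tested, and their median log2 fold change was 0.03, against 0.01 for the 641 tested protein-coding genes of the chromosome. Of the 18, 0 passed the threshold in edgeR and 5 had an unadjusted p below 0.05, beside 2.23% and 12.4% of all tested genes. Most had values near 0, such as *ECHDC1* at 0.04 (SE 0.088) and *RNF146* at 0.03 (SE 0.097), the nearest on the side toward the centromere. Values beyond 0.5 in either direction were found for *ARHGAP18* at −0.75 (SE 0.73), the nearest on the other side, *L3MBTL3* at 0.87 (SE 0.31), *ENPP1* at 0.75 (SE 0.24) and *MOXD1* at 3.03 (SE 1.00), with mean levels of 0.442, 4.37, 8.82 and 0.637 CPM in FLO-1LM. These 4 were picked out after their values were seen. DNA copy number was not measured in these files.

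**Figure D4:**
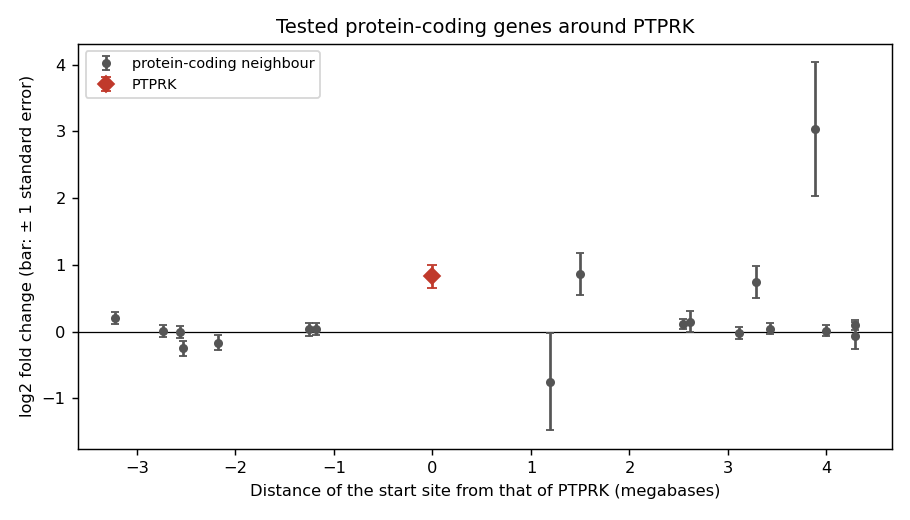
log2 fold change with bars of 1 standard error for *PTPRK* (diamond) and the 18 tested protein-coding genes whose start sites lie within 5 megabases of its own, by distance in megabases. Most neighbors lie near 0, while *PTPRK* lies at 0.83 and *MOXD1*, on very low counts, at 3.03.

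The genes whose pattern was most like that of *PTPRK* were found by the Euclidean distance between centered log2 CPM values over the 4 libraries, among 2942 protein-coding genes within 2-fold of its mean CPM. The nearest 5 were *MAP2*, *MAN1A1*, *TMEM170B*, *F2RL1* and *GLDC*, at distances of 0.0817, 0.100, 0.133, 0.184 and 0.199. *MAP2*, which encodes a microtubule-associated protein, had 273 and 288 counts in FLO-1LM and 164 and 106 counts in parental cells, 11.7 ± 0.75 against 6.48 ± 1.4 CPM. *MAN1A1*, which encodes a Golgi mannosidase, had 20.4 ± 0.76 against 11.7 ± 1.2 CPM (SD, n = 2 each). In all 5 the second parental library was the lower of its pair, as it was for *PTPRK*, which follows from how they were picked. Over only 4 libraries this likeness is mostly the difference between the lines and is given as a description.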

How the data were processed

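RNA was measured in 2 FLO-1LM and 2 FLO-1 parental libraries, grouped by the cell line in the labels. Directional libraries were sequenced, adapters were trimmed (Trimmomatic 0.30) and reads were mapped to GRCh37. The authors deposited raw read counts per Ensembl gene. The aligner, counting program and strand setting are not given in the sources used here.

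Low counts were removed in R 4.3.3 by the filterByExpr function (minimum count 10, minimum total 15). Lines were compared by edgeR 4.0.16 (TMM, glmQLFit, glmQLFTest) over all kept genes, and p-values were adjusted by Benjamini and Hochberg. Standard errors were taken from the fold change and the F statistic, and 95% intervals use the fit's degrees of freedom. Positions and exon lengths come from GENCODE lifted to GRCh37, a later annotation than the authors' own. Symbols were matched by Ensembl identifier for 55665 of 63677 genes, and *MLLT4* through its current symbol. Proteins translated from the coding sequences were aligned with Biopython 1.88. Coding bases were compared by position in the catalytic loop and by the longest run shared exactly. The scripts were tested on simulated data. Libraries of a line differed by more than sampling noise (chi-square 9.16 and 4.37 times its degrees of freedom).

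The 9 members and all gene lists were chosen with earlier results of these data known. Named were the members, the called genes and up to 3 genes with the most counts of each list, genes overlapping a member, and the 5 genes most like *PTPRK*, and *PTPN2*, *PTPN6*, *PARD3*, *JUP*, *MLLT4*, *LYN*, *PSENEN*, *LGR4* and the neighbors of *PTPRK* were named after their values were seen. Alternatives were DESeq2 1.42.0, other scalings, other filters, limma voom (limma 3.58.1, the study's own test), the mitochondrial genes left out, and each library left out.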

Additional observations from a re-analysis of the deposited data

How the results depend on the processing

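The log2 fold change of *PTPRK* ran from 0.79 to 0.83 over the 8 alternatives that use all libraries and from 0.68 to 1.00 when each library was left out, and it kept its direction in all 12. *PTPRK* did not pass the threshold without FLO-1 parental replicate 2, where the value was 0.68, and nothing is read from its call in any fit. The number of genes called, 382, was 577 with no filter on low counts and 116 to 1052 when a library was left out (1052 and 967 without FLO-1LM replicates 1 and 2, 116 and 139 without the parental replicates 1 and 2). In those fits the lone library of a line is assumed to vary like the other line. Of the other members, *PTPRE* alone was called in any of these fits, with −1.35 without FLO-1LM replicate 1 and a range of −1.35 to −0.19 over the fits that leave out a library, and the cause was not tested. The call counts of the lists moved as well. For nonreceptor phosphatases it was 0 to 2 when a library was left out, for cadherin complex genes 1 to 2, with 2 also in limma voom on library totals, and for liprins and LAR partners 0 to 1. With the length of the longest transcript in place of all annotated exon, the mean level over the 4 libraries was 2.10 RPKM for *PTPRK*, 5.69 for *PTPRU*, 55.7 for *PTPRF*, 21.5 for *PTPRS*, 14.3 for *PTPRA*, 0.438 for *PTPRE*, 10.2 for *PTPRG* and 6.83 for *PTPRJ*. With library totals only, the median log2 fold change of all genes moved to −0.029. No paired analysis was possible because the labels give no replicate numbers, and the numbers used here only name libraries in the order of deposit. Depth limits *PTPRM*, at 0 counts and not tested, and *PTPRE*, on 31 to 64 counts per library.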

Other observations

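*RPL10AP6*, a processed pseudogene of a ribosomal protein gene, lies inside *PTPRG* on the opposite strand, at chromosome 3 of GRCh37 from 61728129 to 61728780. It had 1145 and 1216 counts in FLO-1LM and 994 and 1094 counts in parental cells, and reads of such a pseudogene can be shared with its parent gene, so its level is uncertain. *PTPRG-AS1*, which overlaps the end of *PTPRG*, had 1 to 9 counts per library, and *ID2B* had 2 to 5. An unnamed long noncoding RNA gene inside *PTPRE*, on its own strand, had 8 counts in FLO-1LM replicate 2, the library with the low *PTPRE* count, and 1 to 2 counts in the others. *PTPRO*, which encodes an R3 type receptor phosphatase, had 3 and 6 counts in the parental libraries and 0 in both FLO-1LM libraries, too few to be tested.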
